A study of Mus musculus with 4 samples.

Results

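Ion channel genes were compared between mature and elderly mice in RNA from Lin−LEPR+ bone marrow cells, which the study's methods describe as cells that lack Ter119, CD31 and CD45 and carry the leptin receptor. The 196 genes were taken by symbol from the 33924 annotated genes in the counts. They are the potassium channel (Kcn), voltage-gated calcium channel (Cacna, Cacnb, Cacng), sodium channel (Scn), TRP, ionotropic glutamate receptor (Gria, Grid, Grik, Grin), acid-sensing channel (Accn), ATP receptor (P2rx), CLC (Clcn) and HCN genes. A further 2 symbols that match these patterns were left out by the rule. Trpc4ap and Grid2ip match by spelling, although their products bind channels and are not channels themselves. The mature group held 2 libraries from wild-type C57Bl/6 mice aged 3 months, and the elderly group 2 from mice of that strain aged 24 months. Each library was made from RNA pooled over 3 to 4 mice and holds poly(A) RNA, per the labels, which name whole marrow as the source. The spread between libraries is therefore a spread between pools. No treatment or transgene is given for either group.

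Ion channels are membrane proteins that let selected ions pass down their gradients. Pore subunits form the path for the ion, and auxiliary subunits change how the pore opens, how fast it closes or how much of it reaches the membrane. Voltage, ligands such as glutamate, ATP or protons, and intracellular calcium or sodium open different families, and potassium channels set the resting potential of most cells. In skeletal and stromal cells channels are known mainly for calcium entry, volume control and the sensing of mechanical and chemical signals.

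The 4 libraries held between 10472117 and 15650518 counts, of which the ion channel genes took between 0.0973% and 0.110%. A count of 3, used here as the detection limit, was worth between 0.198 and 0.270 CPM (the unit used throughout, with TMM factors applied to the library totals). Lepr was counted 74183 and 65727 times in the mature and 45713 and 87711 times in the elderly libraries, so the transcript of the sorted receptor was abundant at both ages. The sum of 12 markers of LEPR+ stroma was 30740 and 31270 CPM in mature and 19170 and 27530 CPM in elderly libraries, and 0 of the 12 passed the test. All 12 had negative fitted log2 fold changes (median −0.31), and 6 had both elderly libraries below both mature ones. Markers of blood cells moved with age: 8 of 11 tested erythroid and 8 of 11 tested neutrophil markers were higher in elderly libraries, with sums of 196 to 445 against 1343 to 1478 CPM and of 1219 to 2122 against 4505 to 4566 CPM. The same held for 4 of 7 plasma cell markers (151 to 215 against 980 to 1010 CPM), for 4 of 10 macrophage markers (2076 to 3582 CPM over all libraries, mostly from Vcam1, which LEPR+ stroma shares, while Cd163 had no count), and for 5 of 12 proliferation markers (166 to 387 against 751 to 1039 CPM). Skeletal markers moved in both directions. Of 10 tested osteoblast markers, 2 were higher (Col1a1 and Phex) and 1 lower (Ibsp) in elderly libraries. The osteoblast sum was 7073 and 6434 CPM in mature and 2267 and 4245 CPM in elderly libraries. Of 6 tested chondrocyte markers, 1 was higher (Col2a1) and 2 were lower (Acan and Hapln1). Megakaryocyte markers were low in mature replicate 1 (25.6 CPM, against 110 to 248 CPM elsewhere), where eosinophil markers were high (367 CPM, against 30.4 to 169 CPM). The part of these other cells in the changes below was not tested. In such bulk RNA, fewer cells of a type and less RNA per cell cannot be told apart.

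Of the 196 ion channel genes, 131 had more than 2 counts over the 4 libraries and were tested, 18 had fewer, and 47 had none. Only 71 reached a mean of 1 CPM. Above the detection limit in at least 1 library of an age, 96 were detected at both ages, 19 in elderly libraries only, 7 in mature libraries only and 74 at neither age. Of all 21340 tested genes, 17357 were detected at both ages, and how the rest split between the ages was not counted. Elderly replicate 2 was the deepest library, where 3 counts were worth 0.198 CPM, against 0.257 to 0.270 CPM in the others. The limit was thus easier to pass in the elderly group. The groups without detection include genes with few bases of their own. Reads on bases shared by several transcripts were not counted, so a median of 49.5% of the longest transcript's length could be counted per ion channel gene, 29 genes kept under 10% of it and 2 kept no base. A low count of such a gene is not a low level. Levels are compared between genes only as CPM per countable kilobase.

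Transcripts of a small number of channel genes dominated. The 5 most counted genes held 50.1% of all ion channel counts. Per countable kilobase, Clcn4-2, an endosomal chloride/proton exchanger, stood first at a mean of 82.5 CPM over the 4 libraries. Kcnip3, a calcium-binding protein that joins voltage-gated potassium channels, was at 34.1 CPM per kilobase. Other high levels were those of Grid1, a delta-type glutamate receptor (18.6), Scn7a, a sodium channel relative known for sensing extracellular sodium (15.6), Cacng7, a γ subunit that also attaches to AMPA receptors (14.7), Kcne4, a small auxiliary subunit of potassium channels (13.2), and Cacna1c, the pore of the L-type calcium channel (12.7). P2rx4, an ATP-gated channel, stood at 12.6, but 88.5% of its counts were on transcripts annotated as retaining an intron and 0 on its protein-coding ones. Trpc4ap stood at 10.03, with 97.0% on such transcripts. Of the genes named here, only Scn7a passed the test between the ages.

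**Figure D1:**
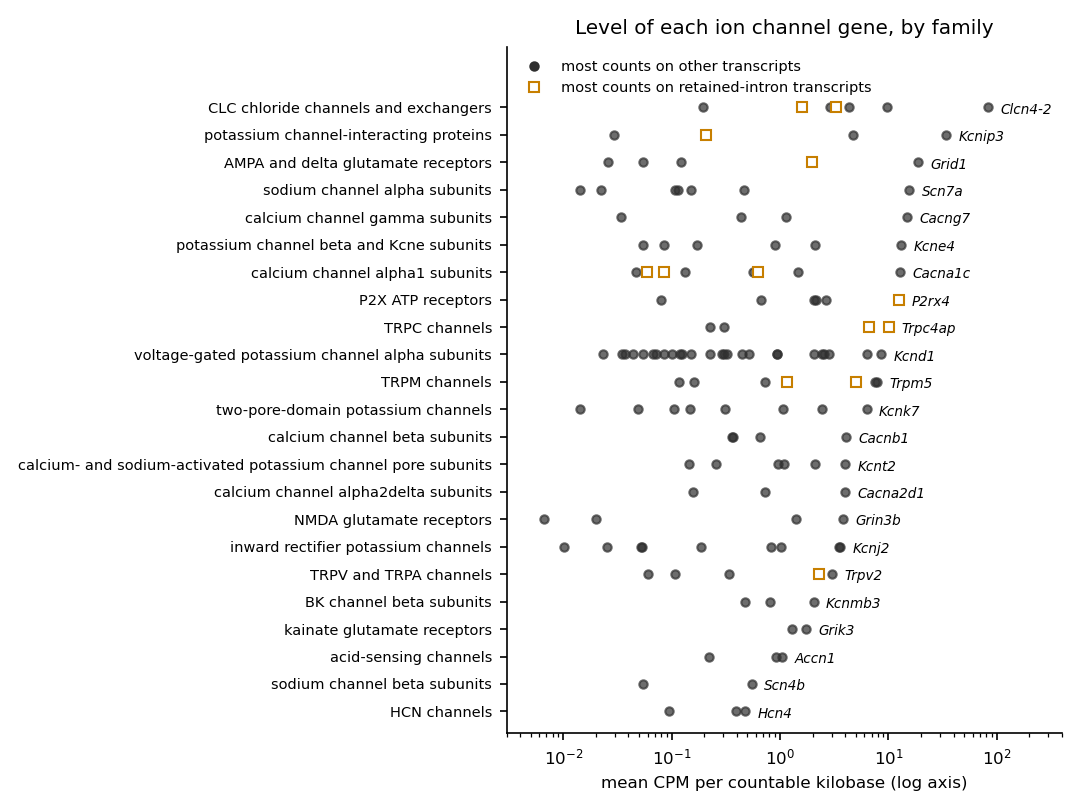
Mean CPM per countable kilobase over the 4 libraries (log axis) for 137 ion channel genes with a count and at least 300 countable bases, by family. Each point is a gene, open squares have most of their counts on retained-intron transcripts, and the highest gene shown of each family is named. Clcn4-2 at 82.5 and Kcnip3 at 34.1 stand furthest right, and the 3 HCN genes shown stay under 0.48.

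Most of these abundant genes overlapped between the ages or missed the threshold. Clcn4-2 was at 180 and 169 CPM in mature and at 146 and 186 CPM in elderly libraries, and the groups overlapped (log2 fold change −0.07, SE 0.20, edgeR adjusted p = 0.953). Kcnip3 was at 27.6 and 30.3 CPM in mature and at 22.7 and 30.4 CPM in elderly libraries, again overlapping (log2 fold change −0.12, SE 0.25). Cacng7 read 38.3 and 36.1 CPM in mature against 21.4 and 34.4 CPM in elderly libraries (log2 fold change −0.41, SE 0.26, edgeR adjusted p = 0.647). Elderly replicate 1 lay apart from the other 3 libraries for this gene and for Grid1. Grid1 was at 135 and 112 CPM in mature and at 54.6 and 98.0 CPM in elderly libraries (log2 fold change −0.69, SE 0.26, edgeR adjusted p = 0.276).

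Between the ages, 9 ion channel genes were higher and 1 was lower in elderly libraries at an adjusted p under 0.05. The 9 were Grik3, Accn1, Kcna2, Kcnk5, Kcnh7, Kcnj2, Cacna1e, Clcn3 and Scn7a, and the 1 was Cacng4. They made up 6.87% of the 131 tested genes for the higher calls, beside 2.28% of all 21340 tested genes, and 0.763% for the lower call, beside 0.45% of all genes. All 9 higher genes encode pore subunits (105 tested, leaving out Trpc4ap and Grid2ip) and Cacng4 encodes an auxiliary subunit (24 tested). That difference between the classes was not tested. Both elderly libraries lay above both mature ones for 37 tested ion channel genes (28.2%, beside 22.9% of all genes) and below them for 26 (19.9%, beside 18% of all genes).

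The fitted changes of the ion channel genes went both ways. The median log2 fold change of the 131 tested genes was 0.18, beside 0.02 for all genes tested, but this value rests on genes with few counts. Over the 96 genes detected at both ages it was −0.05 (47 above 0 and 49 below), beside −0.01 for the 17357 genes of the whole table detected in the same way. With genes detected in 1 age set at their limit against 3 counts, the median over 122 genes was 0.03. The summed level of the 196 genes was 999 and 999 CPM in mature and 1037 and 1119 CPM in elderly libraries. Without Scn7a it was 924 and 925 CPM against 875 and 973 CPM, and the groups overlapped.

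**Figure D2:**
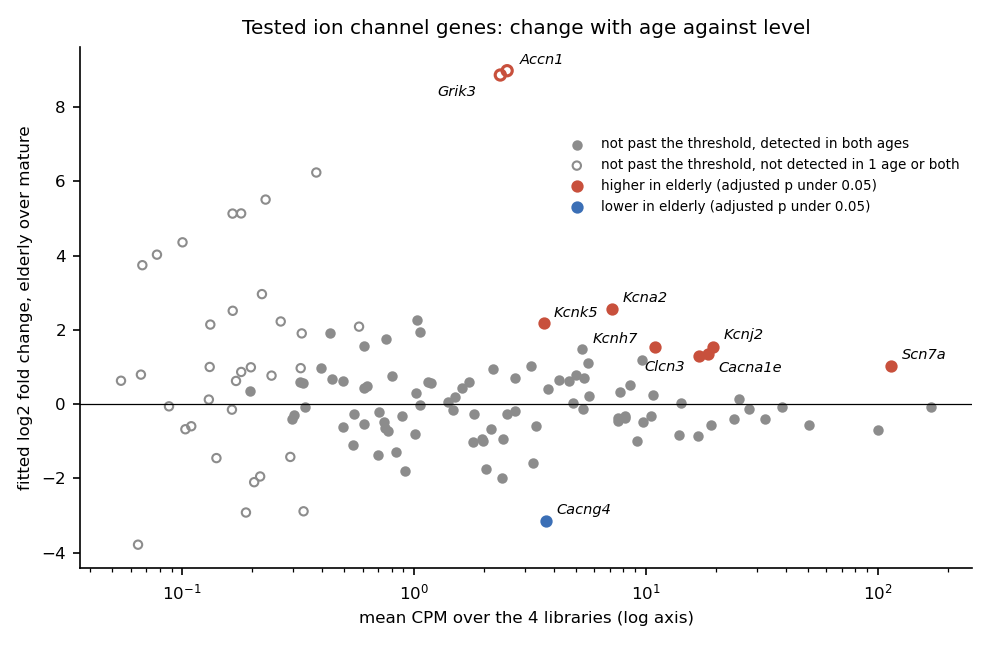
Fitted log2 fold change (elderly over mature) against mean CPM over the 4 libraries (log axis) for 130 of the 131 tested ion channel genes. Colored points passed the test, gray points did not, and open points are genes at 3 counts or fewer in both libraries of 1 or both ages, whose fitted values are not folds. The 9 genes higher in elderly libraries lie at mean levels of 2.36 to 114 CPM, and Cacng4 is the 1 colored point below 0.

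The 10 genes that differed map to chromosomes 1, 2, 3, 4, 8, 11 and 14 (mm9, the build of the counts). Grik3 spans chr4:125167944-125391417 on the plus strand, Accn1 chr11:80693671-81781959 on the minus strand and Cacng4 chr11:107593671-107655871 on the minus strand. Scn7a spans chr2:66511482-66622971 on the minus strand and Kcnh7 chr2:62531471-63022344 on the same strand. Several channel genes beside them were not counted at all. Scn1a and Scn9a, which lie beside Scn7a, had 0 counts. Kcnj16 beside Kcnj2, Kcnk16 beside Kcnk5 and Cacng5 beside Cacng4 had 0 counts as well, and Cacng1, on the other side of Cacng4, had 25 counts over the 4 libraries.

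The 250 bases before the first RefSeq start site listed were read for the 9 of these 10 genes that the promoter table holds. They are in GRCm38.p6, a later build than that of the counts, so no coordinate is carried over between them. The 9 sequences held between 3 and 42 CG dinucleotides with a median of 16. The median was 6 over all 27025 genes in the promoter table and 9.5 over the 98 tested ion channel genes with an entry. Median GC content was 65.6% in the 9, beside 52% over all. The hexamer GGGCGG, on either strand, was in 6 of the 9, in 52.0% of the 98 and in 32.9% of all 27025. TATAAA, on either strand, was in 0 of the 9 and in 13.0% of all. The other motifs read were CACGTG (1 of the 9, 6.05% of all), GGACAG (0 of the 9, 18.7% of all) and CAGCACC (1 of the 9, 5.70% of all). Differences in these shares were not tested. The start sites were not matched to the counted transcripts, and their use in these cells was not tested. The sequences with the most and the fewest CG dinucleotides are shown with one that lies between, all 3 from genes higher in elderly libraries. They run 5′ to 3′, with each CG in capitals, from Grik3 (chr4:125490446-125490695, plus strand, 42 CG), Kcnj2 (chr11:111065914-111066163, plus strand, 14 CG) and Scn7a (chr2:66784911-66785160, minus strand, 3 CG).
Grik3: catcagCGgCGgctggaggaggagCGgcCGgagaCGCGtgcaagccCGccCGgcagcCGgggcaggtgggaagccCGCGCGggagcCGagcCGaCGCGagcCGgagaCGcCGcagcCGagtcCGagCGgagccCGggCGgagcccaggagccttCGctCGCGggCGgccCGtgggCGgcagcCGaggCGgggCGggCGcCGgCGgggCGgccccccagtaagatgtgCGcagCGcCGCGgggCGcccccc
Kcnj2: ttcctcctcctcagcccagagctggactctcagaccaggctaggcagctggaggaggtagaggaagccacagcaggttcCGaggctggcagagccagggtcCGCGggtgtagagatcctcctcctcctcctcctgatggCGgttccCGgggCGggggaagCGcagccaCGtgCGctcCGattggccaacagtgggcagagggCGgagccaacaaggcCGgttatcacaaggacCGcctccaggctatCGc
Scn7a: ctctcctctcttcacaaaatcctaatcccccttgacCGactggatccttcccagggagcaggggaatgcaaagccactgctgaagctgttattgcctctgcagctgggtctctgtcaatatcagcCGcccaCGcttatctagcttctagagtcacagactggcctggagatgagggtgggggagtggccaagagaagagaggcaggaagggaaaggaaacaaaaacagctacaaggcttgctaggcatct

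Both genes that passed with no count in mature libraries encode ligand-gated channels. Grik3, a subunit of the kainate type of glutamate receptor, had no count at all in either mature pool, whereas the elderly pools had 66 and 53 counts. These are 5.93 and 3.50 CPM, and their mean was at least 18.3-fold higher than 3 counts would give in the mature libraries (edgeR adjusted p = 0.0014). Each elderly library alone gives a bound of 23.0-fold and 13.6-fold. The Grik3 transcript that held the counts is 8973 bases long, of which 1212 coding and 131 5′ UTR bases could be counted. The CG-rich sequence above precedes the first RefSeq start site listed for this gene. Its relative Grik5 was present at both ages, with 52 and 33 counts in mature and 74 and 91 in elderly libraries, and did not pass the test (log2 fold change 0.79, SE 0.38, edgeR adjusted p = 0.473). The other 3 kainate receptor genes had no count.

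Accn1, now named Asic2, encodes a channel opened by protons. It had 0 counts in both mature libraries, 30 in elderly replicate 1 and 112 in elderly replicate 2. In CPM the elderly libraries stood at 2.70 and 7.39, and their mean was at least 19.6-fold higher than the limit of the mature ones (edgeR adjusted p = 0.00196). Without elderly replicate 2 this bound is 10.5-fold. The elderly libraries thus differed among themselves for this gene. Accn3, another proton-gated channel, had 15 and 15 counts in mature and 9 and 10 in elderly libraries and did not pass.

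Among the other glutamate and ATP receptors no gene passed. P2rx7, an ATP receptor that opens a wide pore and is known from macrophages and bone cells, had 25 and 40 counts in mature and 105 and 95 in elderly libraries. The groups were apart, at 2.79 ± 0.90 and 7.85 ± 2.24 CPM (SD, n = 2), but the adjusted p was over the threshold (log2 fold change 1.48, SE 0.40, edgeR adjusted p = 0.0789). P2rx4, its neighbor on chromosome 5, read 7.32 and 10.7 CPM in mature and 7.28 and 7.26 CPM in elderly libraries. Gria3, an AMPA receptor subunit, had 34 and 79 counts in mature and 24 and 17 in elderly libraries, all of them on retained-intron transcripts (edgeR adjusted p = 0.191). Grin3b, an NMDA receptor subunit, was level, at 3.96 and 5.66 CPM in mature and 5.21 and 4.55 CPM in elderly libraries (log2 fold change 0.02, SE 0.37).

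**Figure D3:**
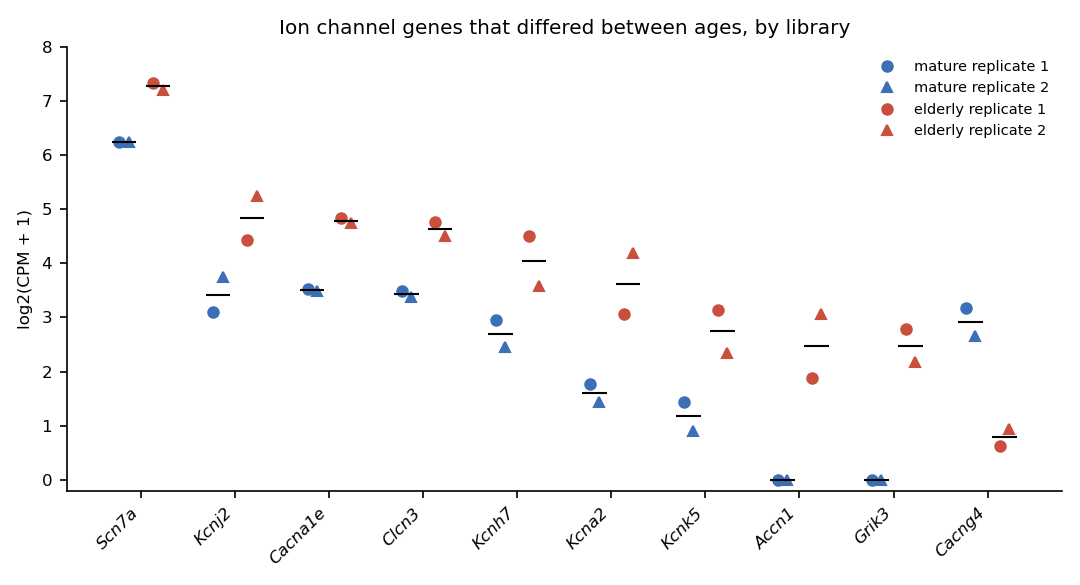
log2(CPM + 1) of the 10 ion channel genes that passed the test, in each of the 4 libraries. Points are libraries (blue mature, red elderly, circle replicate 1, triangle replicate 2) and bars are the mean of the 2 libraries of an age. Scn7a rose from 74.5 and 74.9 to 146 and 161 CPM, Grik3 and Accn1 sit at 0 in both mature libraries, and the red points of Kcna2, Kcnj2, Kcnh7 and Kcnk5 lie further apart than those of Cacna1e.

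Potassium channels supplied 4 of the 9 higher genes, from 59 tested (6.78%, near the 6.87% of all tested ion channel genes). Kcna2 forms a delayed rectifier, a channel that opens with depolarization and restores the resting potential. It had 28 and 20 counts in mature and 82 and 260 in elderly libraries, or 2.41 and 1.72 against 7.37 and 17.2 CPM. Both elderly values lay above both mature ones, with a wide gap between them (5.95-fold, log2 fold change 2.57, SE 0.44, edgeR adjusted p = 0.00774). Kcna3, the adjoining gene on chromosome 3 and the main such channel of lymphocytes, had 46 and 36 counts in mature and 113 and 79 in elderly libraries and did not pass (log2 fold change 1.11, SE 0.41, edgeR adjusted p = 0.249). Kcna10 and Kcnc4 in the same stretch had 0 counts.

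Kcnh7 belongs to the ether-a-go-go related channels, which pass current during repolarization. It had 78 and 52 counts in mature and 241 and 166 in elderly libraries, or 6.71 and 4.46 against 21.7 and 11.0 CPM (2.90-fold, log2 fold change 1.54, SE 0.37, edgeR adjusted p = 0.0469). Kcnd3, which carries a fast transient current, was on the opposite side with 39 and 34 counts in mature and 16 and 7 in elderly libraries, without passing (log2 fold change −1.76, SE 0.61, edgeR adjusted p = 0.214). Its relative Kcnd1 was the most counted voltage-gated potassium channel and overlapped between the ages, at 39.6 CPM in mature and 37.7 CPM in elderly libraries on average. Over the family of 40 voltage-gated pore genes, 27 were tested, 17 had a positive and 10 a negative fitted log2 fold change, and 11 had no count. A mean of 1 CPM was reached by 11 of the 27.

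Kcnj2 encodes an inward rectifier, a channel that holds the resting potential near that of potassium. It had 88 and 145 counts in mature and 229 and 563 in elderly libraries, or 7.57 and 12.4 against 20.6 and 37.2 CPM (2.89-fold, log2 fold change 1.53, SE 0.34, edgeR adjusted p = 0.0302). Elderly replicate 2 was the highest library. Kcnj5, of the same family, had 0 and 86 counts in mature and 15 and 149 in elderly libraries, so replicates of 1 age differed more than the ages did. Kcnk5, an acid-sensitive leak channel with 2 pore domains, had 20 and 10 counts in mature and 87 and 62 in elderly libraries. In CPM these were 1.72 and 0.858 against 7.82 and 4.09 (4.56-fold, log2 fold change 2.19, SE 0.51, edgeR adjusted p = 0.0373). All 6 tested genes of the leak channel family had positive fitted values, but only 3 reached a mean of 1 CPM and only Kcnk5 passed.

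The channels opened by intracellular sodium diverged in their values, but neither passed. Kcnt1 had 47 and 42 counts in mature and 10 and 15 in elderly libraries, or 3.82 ± 0.31 and 0.944 ± 0.065 CPM (SD, n = 2; log2 fold change −2.002, SE 0.50, edgeR adjusted p = 0.0556). Only 22.8% of its counts were on protein-coding transcripts. Kcnt2 had 44 and 92 counts in mature and 155 and 196 in elderly libraries (log2 fold change 1.199, SE 0.36, edgeR adjusted p = 0.1246). Auxiliary potassium channel subunits did not pass either. Kcne4 read 13.9 and 10.6 CPM in mature and 4.67 and 7.52 CPM in elderly libraries (log2 fold change −1.001, SE 0.34, edgeR adjusted p = 0.194). Kcnmb1, which raises the calcium sensitivity of large-conductance channels and lies inside the span of Kcnip1, overlapped between the ages at 5.34 and 2.66 against 4.31 and 1.12 CPM.

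Calcium channels held a gene in each direction. Cacna1e, the pore of the R-type channel, had 123 and 119 counts in mature and 306 and 392 in elderly libraries. In CPM it stood at 10.6 and 10.2 against 27.5 and 25.9, so the libraries of each age were close together (2.56-fold, log2 fold change 1.36, SE 0.26, edgeR adjusted p = 0.014). Its transcript could be counted over its full length of 12696 bases. Cacna1c, the L-type pore, had the opposite sign without passing, at 19.1 and 16.4 CPM in mature and 8.80 and 11.1 CPM in elderly libraries (log2 fold change −0.83, SE 0.28, edgeR adjusted p = 0.201). Cacna1i, a T-type pore, had 0 counts in mature and 11 and 8 in elderly libraries, and did not pass (edgeR adjusted p = 0.179). Its elderly mean was at least 2.94-fold higher than the limit of 3 counts.

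Cacng4 was the 1 gene lower in elderly libraries. Its product is a γ subunit that also attaches to AMPA receptors. It had 93 and 62 counts in mature and 6 and 14 in elderly libraries, or 8.004 and 5.32 against 0.539 and 0.924 CPM. The group means were 6.66 ± 1.90 and 0.731 ± 0.272 CPM (SD, n = 2), and the fitted level was 8.81-fold lower with age (log2 fold change −3.14, SE 0.49, edgeR adjusted p = 0.00399). Of its countable bases on the protein-coding transcript, 634 were coding and 2426 3′ UTR. Of the 8 γ subunit genes, 3 were tested and all 3 had negative fitted values, of which 2 reached a mean of 1 CPM. The other auxiliary calcium channel subunits did not pass: Cacnb1 stood at 7.001 and 10.04 CPM and Cacna2d1 at 3.22 and 4.32 CPM in mature and elderly libraries on average (log2 fold changes 0.52, SE 0.31, and 0.42, SE 0.43).

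Scn7a was the most counted gene of the 10. It had 870 and 869 counts in mature and 1797 and 2208 in elderly libraries, or 74.9 and 74.5 against 161 and 146 CPM. The ages were far apart and the libraries of each age close (2.06-fold, log2 fold change 1.04, SE 0.20, edgeR adjusted p = 0.0132). Scn7a alone took 7.50% and 7.46% of the ion channel counts in mature and 15.6% and 13.0% in elderly libraries. Of the 10 sodium channel pore genes, Scn7a was the only one above 1.1 CPM in mean. Of the 8 tested sodium channel genes 7 had positive fitted values, and 4 of the 8 reached a mean of 1 CPM.

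Scn7a is also known from Schwann cells, and markers of that cell type are given beside it. Their sum was 90.9 and 74.1 CPM in mature and 154 and 147 CPM in elderly libraries. Of 8 tested markers only Mbp, a myelin protein, passed, with 138 and 115 counts in mature and 485 and 600 in elderly libraries. The defining markers were near 0: Sox10 had 0, 2, 1 and 1 counts, and Foxd3 and Gfra3 had none. Of 10 neuronal markers 4 had no count in any library and 0 passed, with a sum of 1.29 and 4.37 CPM in mature and 10.6 and 7.32 CPM in elderly libraries.

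Clcn3, an endosomal chloride/proton exchanger, was the 1 chloride gene that passed. It had 118 and 110 counts in mature and 292 and 329 in elderly libraries, or 10.2 and 9.43 against 26.2 and 21.7 CPM (2.44-fold, log2 fold change 1.29, SE 0.27, edgeR adjusted p = 0.0224). Of these counts 96.5% were on transcripts with a retained intron and 0 on protein-coding ones. The counted bases thus lie in stretches annotated only in the other transcript types, and the level of the coding transcripts was not measured. The other 6 CLC genes did not pass. Retained-intron transcripts held 13.3% and 13.5% of all ion channel counts in mature and 12.3% and 9.50% in elderly libraries, and they held more than 50% of the counts of 12 tested genes.

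**Figure D4:**
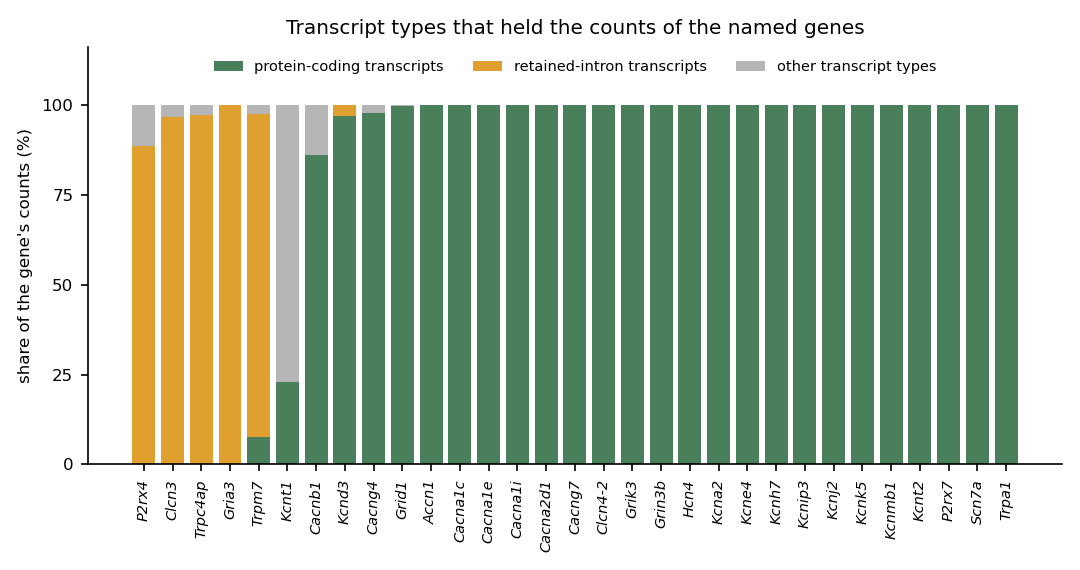
Share of each named gene's counts, summed over the 4 libraries, on protein-coding, retained-intron and other transcript types (%). Bars are 31 genes named by the rule. Gria3 lies at 100% retained intron, Clcn3 at 96.5%, and most other named genes are protein coding throughout.

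TRP channels, which respond to temperature, chemicals, membrane stretch or receptor signals, held no gene that passed. Of 16 tested, leaving out Trpc4ap, 5 had positive and 11 negative fitted values, and their summed level was 87.6 and 86.8 CPM in mature and 77.7 and 64.7 CPM in elderly libraries. Trpm7, a magnesium-permeable channel fused to a kinase, read 21.9 and 23.6 CPM in mature and 16.5 and 14.2 CPM in elderly libraries, with 89.8% of its counts on retained-intron transcripts (log2 fold change −0.57, SE 0.26, edgeR adjusted p = 0.430). Trpa1, the channel opened by irritant chemicals, read 10.6 and 12.1 CPM against 9.25 and 7.06 CPM (log2 fold change −0.48, SE 0.30). Trpc4ap, whose product is not a channel, read 62.1 and 59.3 CPM against 41.9 and 39.7 CPM (log2 fold change −0.57, SE 0.21, edgeR adjusted p = 0.249). HCN channels, which carry the pacemaker current, were low at both ages. Hcn4 had 32 and 24 counts in mature and 14 and 17 in elderly libraries (log2 fold change −1.01, SE 0.55). All 4 HCN genes had negative fitted values without passing, but only 1 of them reached a mean of 1 CPM.

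The 9 higher genes differed in which elderly library was higher. Kcna2, Kcnj2 and Accn1 were higher in elderly replicate 2, and the other 6 in elderly replicate 1. The macrophage markers Mrc1 (111, 67, 208 and 600 counts) and C1qa (21, 1, 87 and 193 counts) were also highest in elderly replicate 2. Both passed the test. By contrast, Cd68 (122, 202, 108 and 130 counts) and Csf1r (12, 29, 22 and 24 counts) were highest in mature replicate 2. Marco was counted in elderly replicate 1 only, and Cd163 in no library. T cell markers, with sums of 40.4 and 19.9 CPM in the elderly libraries, were higher in elderly replicate 1. Whether these cells carry any of the channel transcripts was not tested. With either elderly library left out, edgeR called 0 ion channel genes, although all 10 kept their direction: Grik3, for one, had an adjusted p of 0.107 without elderly replicate 1 and of 0.602 without elderly replicate 2. The kept direction carries no weight, since for each of the 10 both elderly libraries lay on the same side of both mature ones. The log2 fold change of Kcna2 was 1.83 without elderly replicate 2 and that of Kcnh7 was 0.95 without elderly replicate 1, while that of Kcnk5 was 2.77 without mature replicate 1. Scn7a missed the threshold without mature replicate 1 (edgeR adjusted p = 0.0533) and without mature replicate 2 (0.121), and the latter fit also lost Clcn3 (0.0745), Kcnk5 (0.0751) and Kcnh7 (0.098). The exact test at a dispersion of 0.2 called 4 of the 131 genes higher and 1 lower. The study's methods name this test and this dispersion. It called 233 of all 21340 genes, and Scn7a was not among them (exact test adjusted p = 0.944).

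Other genes that move the same ions were counted for comparison. Of 19 tested store-operated and intracellular calcium channel genes, 0 passed in edgeR and their median log2 fold change was near 0. Of 24 other chloride and volume channel genes and 6 epithelial sodium and cyclic nucleotide-gated channel genes, 0 passed (medians 0.04 and 0.16). Among 15 connexins and pannexins, which join cells or release ATP, Gja5 was lower with age, with 210 and 126 counts in mature and 59 and 63 in elderly libraries (log2 fold change −1.61, edgeR adjusted p = 0.0254). Gja1, the abundant connexin of stroma, had 35669 and 45341 counts in mature and 21370 and 43639 in elderly libraries and did not pass. Among 25 pumps and exchangers, Atp1b1, the β subunit of the sodium pump, was higher, with 179 and 126 counts in mature and 427 and 534 in elderly libraries (log2 fold change 1.49, edgeR adjusted p = 0.00924).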

How the data were processed

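RNA of Lin−LEPR+ cells was sequenced in 4 libraries from mature (3 months) and elderly (24 months) mice, grouped by the sample titles. Per the labels and the study's methods, the authors trimmed reads with CutAdapt, mapped them with HISAT2 to mm9 and counted them with featureCounts. The values they deposited are raw counts per Ensembl transcript without normalization. The strand setting is not given in the sources used here. Transcript IDs were matched to GENCODE M1 (388 of 95883 unmatched, holding at most 0.0888% of counts), and counts were summed per gene symbol. The 25621 transcripts with no base of their own had 0 counts, so reads on shared bases were left out. "Countable" bases are exonic bases that no other transcript shares.

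Genes with more than 2 counts over the 4 libraries were tested with edgeR 4.0.16 in R 4.3.3 (quasi-likelihood F-test, 2-sided, TMM factors, Benjamini-Hochberg adjustment over 21340 genes, called at an adjusted p under 0.05, prior count 0.125). Folds printed beside a log2 fold change are those of the fit, not ratios of the group means. A fold against an age with 3 counts or fewer in both libraries is given as a limit against the mean CPM of 3 counts in each library. These limits cover counting error only. The members and lists were chosen with earlier results of these data known. Named genes are all called members, the 10 highest per countable kilobase (at least 300 such bases), the 8 uncalled with the smallest p and the most counted gene of any family left. Some genes that meet the rule are not reported here. Genes named as neighbors, relatives or list members were chosen after their values were seen. Promoters are those of the first RefSeq start site listed per gene, in GRCm38.p6. Cacng4 has no entry. Tests were checked only on simulated counts with the same dispersion for all genes. Changes were set in none of the genes with few counts, which the check therefore does not cover. Alternatives were DESeq2 1.42.0, edgeR's exact test at the study's dispersion of 0.2, other filters, scalings and thresholds, a replicate block, transcripts tested singly and each library left out.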

Additional observations from a re-analysis of the deposited data

How the results depend on the processing

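Against 9 higher and 1 lower ion channel genes, DESeq2 and the fit without TMM factors also called 9 and 1, and the same 10 genes. Over all 21340 tested genes these 2 fits called 701 and 657, beside 583 in the main fit. The exact test at a dispersion of 0.2 called 4 higher and 1 lower, losing Cacna1e, Clcn3, Kcnh7, Kcnj2, Kcnk5 and Scn7a and adding Cacna1i. It called 233 of all 21340 genes, and it is the test and dispersion that the study's methods name. The lower genes numbered 2 in the robust fit, over protein-coding genes only, with transcripts tested singly and at an adjusted p under 0.10. Without the filter they numbered 4. Over all genes the robust fit called 910 of 21340, the fit over protein-coding genes 663 of 15843 and the fit without the filter 1157 of 23355. With edgeR's filterByExpr 8 ion channel genes were higher, without Kcnh7, and 590 of all 15019 genes were called. With protein-coding transcripts only, an alternative chosen after seeing the data, 8 were higher, and Clcn3 was lost because it has no such count. That fit called 641 of 14498 genes. Leaving out 1 library each gave 0 to 11 higher and 0 to 2 lower genes. Without mature replicate 1 Scn7a was lost (adjusted p = 0.0533), and without mature replicate 2 Scn7a, Clcn3, Kcnh7 and Kcnk5 were lost. Without elderly replicate 2 edgeR called 0 of all 20580 genes (1638 genes and 18 ion channel genes at an unadjusted p under 0.05), and without elderly replicate 1 it called 41 of 20559 genes and 0 ion channel genes (20 at an unadjusted p under 0.05). The estimated prior degrees of freedom were 1.76 and 5.7 in these fits against 10.8 with all libraries, and 127 and infinite without mature replicate 2 and mature replicate 1, where 10 and 13 ion channel genes were called. All 4 fits have 1 residual degree of freedom, and the cause of the difference was not tested.

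The replicate numbers only name the libraries. The differences between replicates 1 and 2 correlated at 0.0406 between the ages over 14880 genes. With the replicate block, 11 ion channel genes were higher and 7 lower, all 10 above among them. Calls over all 21340 genes rose as well, to 1262 from 583 without the block. No named gene that passed the test changed direction in any alternative. With a library left out, direction could not turn, since both elderly libraries of each such gene lay on the same side of both mature ones. With 2 pools per age the spread between mice was not measured, and genes with few countable bases or few counts could not be compared at this depth.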
